A study of Mus musculus with 34 samples.

Results

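The chemokine genes of skin mast cells (MCs) and of vessel wall cells were followed as a set of 10 genes out of the 25852 genes in the count tables of the series. The members were named as a list, with earlier results of these data known: Ccl2, Ccl7, Ccl11, Cxcl1, Cxcl2, Ccl3, Ccl4, Cxcl10, Cxcl12 and Cx3cl1. All 10 had rows in the tables. The study asked how integrin-dependent adhesion shapes MC networks in mouse ear skin, where MCs line arterioles, and it sequenced single sorted cells by mCEL-Seq2, a 3′-end method that tags each RNA molecule with a random 6-base unique molecular identifier (UMI). MCs came from 3 wild-type (WT) and 3 Tln1ΔMC male mice of 7 weeks in 30 libraries, and 4 further libraries held sorted Myh11-GFP cells. Talin-1, encoded by Tln1, couples integrins to the actin cytoskeleton. The MC comparison therefore addresses whether chemokine transcripts differ when MCs lack this link. The Myh11-GFP libraries show transcripts of cells freed from ear skin by digestion and then sorted. Whether these match the vessel wall in tissue was not tested.

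WT MCs were from mice with Mcpt5-Cre+/-, Tln1+/+ and the R26LSLYFP reporter, and Tln1ΔMC MCs from their littermates with Mcpt5-Cre+/-, Tln1fl/fl and R26LSLYFP. Both genotypes thus carry the same Cre and the same reporter. Their strain is labelled C57BL/6J, and the methods give the C57BL/6J-Albino background for these crosses, whereas the Myh11-GFP mice were C57BL/6J. The Mcpt5 promoter drives Cre in connective tissue MCs, and YFP marks cells in which Cre has acted. MCs were sorted as CD45+ lineage-negative YFP+ cells after an enzymatic digestion of 75 min. The Myh11-GFP cells were sorted as CD45- GFP+ cells from mice with a Myh11GFP transgene, in which the smooth muscle myosin promoter drives the fluorophore. Neither the labels nor the methods give the number of Myh11-GFP mice, so these 4 libraries were counted as 1 sample and no test was run on them. Sort, strain and sequencing differed between the MC and Myh11-GFP libraries and cannot be told apart from cell type.

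Barcodes with over 1000 transcripts were kept as cells. This left 338, 294 and 272 WT MCs, 285, 354 and 934 Tln1ΔMC MCs and 93, 78, 86 and 73 Myh11-GFP cells (330 in all). Tln1ΔMC mouse 3 had 10 libraries and each other mouse 4. Levels are transcripts per 10000 transcripts outside genes named Gm plus digits, because the Gm genes took between 14.2% and 58.0% of transcripts in the mice and between 11.95% and 25.6% in the Myh11-GFP libraries. The remaining depth was 699401 to 5238330 transcripts per mouse, and the median MC held 1888 to 4761 UMIs by mouse. All 10 MC markers were found in the MCs, with Mcpt4, a MC protease, in 99.8% of them. Of the Myh11-GFP cells, 92.1% held the smooth muscle actin transcript Acta2, 82.4% held Myh11 and 95.5% held the pericyte marker Rgs5, while Mcpt4 was at 0. The Myh11-GFP sort therefore held mural cells, the smooth muscle cells and pericytes that wrap vessels, but fibroblast collagen transcripts were present too (Col1a2 in 91.2% of cells). The study states that a small fraction of fibroblasts was collected as well. Per 10000, the fibroblast list of 6 genes summed to 187, above the pericyte list of 8 (137) and the smooth muscle list of 7 (103). All Myh11-GFP cells are called mural cells below after their sort, and fibroblasts among them were not removed unless stated. In 1 library of WT mouse 2, all 81 cells held both macrophage and keratinocyte transcripts, against 4.05% to 6.35% of the cells of its other libraries, and results that turn on it are also given without it.

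Chemokines are small secreted proteins that recruit leukocytes through G-protein-coupled receptors. CCL2 and CCL7 attract monocytes through CCR2, CCL11 attracts eosinophils through CCR3, CXCL1 and CXCL2 attract neutrophils through CXCR2, CCL3 and CCL4 attract monocytes and T cells, and CXCL10 binds CXCR3 and is induced by interferons. CXCL12 is different in that many stromal cells make it constitutively to hold CXCR4-bearing cells in place, and CX3CL1 is a membrane-tethered ligand of CX3CR1. Inflammatory chemokine genes are classic targets of the transcription factors NF-κB and AP-1.

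Members lie in a few chromosomal neighbourhoods of the mouse genome (GRCm38). Ccl2 (chr11:82035571-82037453), Ccl7 (chr11:82045712-82047525) and Ccl11 (chr11:82057823-82062955) follow each other on the plus strand, and Ccl3 (chr11:83647844-83649355) and Ccl4 (chr11:83662584-83664683) lie further along the same chromosome on opposite strands. Cxcl1 (chr5:90891241-90893115) and Cxcl2 (chr5:90903871-90905938) are neighbours, with Cxcl10 (chr5:92346638-92348889, minus strand) on the same chromosome. Cxcl12 is at chr6:117168535-117181367 and Cx3cl1 at chr8:94772009-94782427.

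The 250 bases before the RefSeq start (GRCm38.p6) are shown for Cxcl1, Cxcl2 and Cxcl10, inducible members that mural cells transcribed, and for Cxcl12 as the constitutive contrast. Capitals mark NF-κB and AP-1 motifs found on either strand.
Cxcl1, chr5:90890995-90891244, plus strand: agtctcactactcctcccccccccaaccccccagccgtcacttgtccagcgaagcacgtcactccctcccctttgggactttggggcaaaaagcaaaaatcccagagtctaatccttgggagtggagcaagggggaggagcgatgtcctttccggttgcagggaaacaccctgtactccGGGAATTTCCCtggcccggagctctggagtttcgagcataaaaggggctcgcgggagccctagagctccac
Cxcl2, chr5:90903649-90903898, plus strand: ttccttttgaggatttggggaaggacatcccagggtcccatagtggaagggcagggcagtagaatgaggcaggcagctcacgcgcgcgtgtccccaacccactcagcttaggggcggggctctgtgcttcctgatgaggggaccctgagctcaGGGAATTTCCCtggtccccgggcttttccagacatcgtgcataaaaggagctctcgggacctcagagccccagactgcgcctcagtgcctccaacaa
Cxcl10, chr5:92348890-92349139, minus strand: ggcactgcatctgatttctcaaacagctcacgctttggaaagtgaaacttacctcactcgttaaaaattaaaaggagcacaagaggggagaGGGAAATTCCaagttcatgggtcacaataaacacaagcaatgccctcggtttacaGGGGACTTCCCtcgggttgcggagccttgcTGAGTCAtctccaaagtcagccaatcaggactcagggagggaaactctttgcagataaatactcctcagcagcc
Cxcl12, chr6:117168285-117168534, plus strand: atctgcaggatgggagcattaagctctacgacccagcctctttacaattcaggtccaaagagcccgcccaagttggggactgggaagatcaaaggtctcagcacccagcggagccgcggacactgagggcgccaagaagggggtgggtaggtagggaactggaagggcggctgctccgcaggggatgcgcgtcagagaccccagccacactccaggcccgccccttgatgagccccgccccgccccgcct
RefSeq promoters were matched for 6 of the 10 members. The NF-κB consensus was searched on both strands, together with AP-1 (TGANTCA) and TATAAA. Cxcl1 held 1 near-palindromic NF-κB match, read on both strands, 71 to 61 bases before its start, and Cxcl2 held the same run 97 to 87 bases before its start. Cxcl10 held an NF-κB match 159 to 150 bases before its start, 2 overlapping ones 104 to 94 bases before it, and an AP-1 match (TGAGTCA) 74 to 68 bases before it. In Cx3cl1 the only match was TATAAA at the last 6 bases, and Cxcl12 and Ccl3 held none of the motifs. Of 32851 promoters of this length, 7.25% held the NF-κB motif, 6.75% AP-1 and 12.4% TATAAA. A match describes letters only.

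Ccl2 and Ccl7, the monocyte attractants, were the main chemokine transcripts of MCs, and their order was inverted in mural cells. Ccl7 stood at 24.9, 17.0 and 21.8 transcripts per 10000 in the 3 WT mice and at 19.8, 27.8 and 22.9 in the 3 Tln1ΔMC mice. It ranked 32 of 19909 genes by pooled MC level. In the 4 mural libraries Ccl7 stood at 4.77, 4.75, 2.26 and 7.90, so every mouse lay above every mural library. Pooled over cells, the MC level was 4.94-fold that of mural cells (exact interval 4.57 to 5.34, which like all intervals here covers counting error only).

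Ccl2 stood at 4.09, 5.77 and 7.96 per 10000 in WT mice and at 5.90, 9.56 and 6.77 in Tln1ΔMC mice. Mural libraries held 28.9, 38.6, 19.1 and 25.2, all above the 6 mice, and the pooled mural level was 4.17-fold higher (4.01 to 4.34). Ccl7 exceeded Ccl2 by 2.73-fold to 6.09-fold in each of the 6 mice, whereas Ccl2 exceeded Ccl7 by 3.19-fold to 8.46-fold in each of the 4 mural libraries. Because each molecule is counted once at its 3′ end, these counts were compared between genes without a division by length.

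The share of cells with a transcript told less of this difference for Ccl2 than the level did. Ccl2 was found in 34.9%, 62.9% and 50.4% of the WT MCs and in 41.4%, 50.6% and 77.5% of the Tln1ΔMC MCs by mouse, beside 50.7% to 67.9% of cells in the mural libraries, and these ranges overlapped. Ccl2-positive mural cells thus held more transcripts each, up to 161 UMIs in 1 cell against 48 in the richest MC. Ccl7 was found in 65.7% to 92.6% of MCs by mouse and in 18.6% to 26.9% of mural cells by library. With each cell thinned to 1000 UMIs, Ccl7 was in 56.0% to 70.3% of MCs and in 9.99% to 16.0% of mural cells.

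Cxcl1, a neutrophil attractant, was the highest member in mural cells and near absent from MCs. It stood at 70.7, 93.2, 51.4 and 63.1 per 10000 in the mural libraries, rank 10 of 14907 genes, and was found in 88.8% of mural cells. In MCs it stood at 0.150, 0.0872 and 0.157 in WT mice and 0.0385, 0.0340 and 0.0229 in Tln1ΔMC mice, from 53 UMIs in 28 of 2477 cells. Every mouse lay below the level at barcodes of the MC libraries that held no cell (0.329, described further on), so no fold over MCs is given.

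Cxcl2, which binds the same receptor as Cxcl1, stood at 6.56, 9.48, 7.27 and 7.34 per 10000 in mural libraries, where 40.6% of cells held it. MCs held 0.278, 1.04 and 0.329 in WT mice and 1.34, 1.06 and 0.621 in Tln1ΔMC mice, all below the mural libraries, and 125 MCs held a transcript. The 29 MCs in which macrophage markers exceeded 1% of transcripts held 150.04 of the 721 Cxcl2 transcripts of MCs. Their level was 12.01 per 10000, from 8 cells, and 1 cell with 87 UMIs gave 58.6% of it. The other 2448 MCs held the remaining 571 transcripts at 0.584 per 10000, in 4.78% of them. Pooled over MCs, the level (0.727) also lay below that at barcodes of the MC libraries that held no cell (1.12, interval 0.776 to 1.57), described further on. By mouse this did not hold throughout: Tln1ΔMC mouse 1 lay above 1.12, and WT mouse 2 and Tln1ΔMC mouse 2 lay inside the interval.

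Ccl11, the eosinophil attractant known as eotaxin, was a mural transcript at 6.19, 8.53, 6.73 and 5.07 per 10000 by library, in 36.1% of cells. Only 15 MCs held it, and no mouse exceeded 0.0436. Cxcl10 stood at 6.74, 5.36, 2.15 and 2.49 in mural libraries (24.5% of cells) and was found in 4 MCs. Cxcl12 stood at 3.01, 2.81, 3.11 and 4.65, and although its mural level was below that of Ccl11 and Cxcl10 pooled over cells (3.24 against 6.75 and 4.54), more cells held it (47.6%). It was found in 17 MCs.

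The remaining members were sparse. Ccl4 was a MC transcript at 0.243, 0.218 and 1.02 per 10000 in WT mice and 0.578, 0.306 and 0.319 in Tln1ΔMC mice, in 107 MCs, and 2 mural cells held 1 UMI each. Ccl3 was found in 18 MCs with 40 UMIs in all and in 1 mural cell. Cx3cl1 was found in 6 MCs and in 5 mural cells, and its 4 mural libraries (0 to 0.0826) overlapped the mice (0 to 0.0286). Where a mouse held no transcript, 3 counts set the limit, for example 0.887% of the 338 cells of WT mouse 1 for Ccl11.

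**Figure D1:**
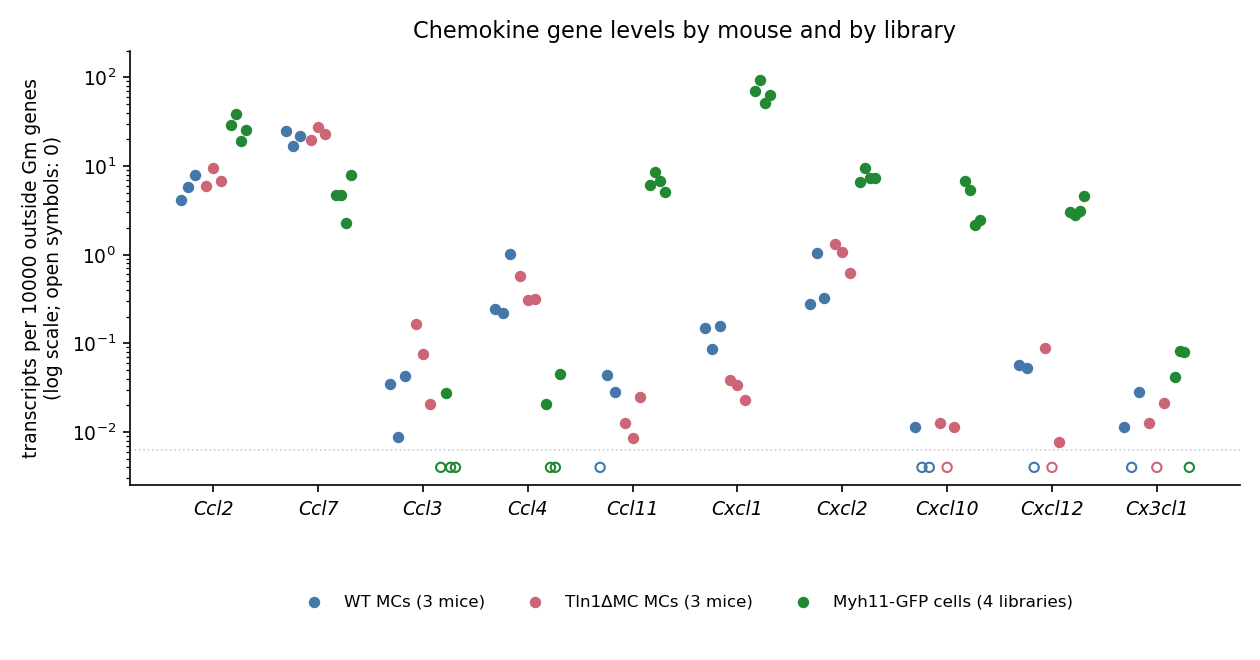
Level of each of the 10 chemokine genes (transcripts per 10000 outside Gm genes, log scale) in 3 WT mice, 3 Tln1ΔMC mice and 4 Myh11-GFP libraries, with open symbols for 0. Ccl7 and Ccl4 lie higher in every mouse than in every mural library, 6 members lie the other way, and Ccl3 and Cx3cl1 overlap.

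Across the set, 6 members (Ccl2, Ccl11, Cxcl1, Cxcl2, Cxcl10 and Cxcl12) had every mural library above every mouse, where 15.2% of 14679 genes did. Another 2 members (Ccl7 and Ccl4) had every mouse above every library, where 16.7% of genes did. When thinned shares of cells replaced levels, Ccl2 no longer separated and 5 members had every mural library above every mouse.

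Levels at the barcodes that held no cell were set beside those in cells. These barcodes held a median of 136 transcripts in MC and 115 in mural libraries. A level per 10000 therefore compares the make-up of their transcripts with that of cells, not the amounts. Each library used 1 set of 96 of its 192 barcodes, and the other barcodes took 2.93% of the MC and 2.86% of the mural transcripts. In MC libraries these barcodes held Ccl7 at 16.0 per 10000 (14.7 to 17.5) beside 22.7 in cells, and Ccl2 at 3.52 beside 6.77. Cxcl1 (0.329 beside 0.0536), Cxcl2 (1.12 beside 0.727), Cxcl10 (0.0988 beside 0.00809), Cxcl12 (0.0988 beside 0.0222), Ccl3 (0.0988 beside 0.0404) and Cx3cl1 (0.0329 beside 0.0152) were not higher per 10000 in MCs than at these barcodes. There, Cxcl10, Cxcl12 and Ccl3 rest on 3 transcripts each and Cx3cl1 on 1. Whether the MC transcripts of the members named here had spread from elsewhere was not tested. For Cxcl2, single MCs nevertheless held up to 87 UMIs, and 64 MCs held at least 2. Ccl4 stood at 0.132 beside 0.369, and Ccl11 was not found at these barcodes. In mural libraries Cxcl1 stood at 34.7 beside 70.8 in cells, and Ccl2 at 4.88 beside 28.5, Ccl11 at 1.63 beside 6.81, Cxcl10 at 1.86 beside 4.58 and Cxcl12 at 1.16 beside 3.27. Cxcl2 (6.74, interval 4.52 to 9.69, beside 7.67) and Ccl7 (4.42, interval 2.66 to 6.90, beside 4.63) had similar levels per 10000 in cells and at these barcodes. Single mural cells held up to 70 and 86 UMIs of them, and how much of their transcripts had spread between barcodes was not tested. Ccl3 and Ccl4 stood at 1.16 each, from 5 transcripts each, beside 0.00701 and 0.0140 in cells. Both levels thus lay above those in the cells of the same libraries, and the source of these transcripts was not tested.

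In the comparison of genotypes, no member passed the test. The targeted gene, Tln1 (chr4:43531519-43562691), stood at 417, 601 and 689 normalised transcripts per 1000000 in WT and 554, 462 and 354 in Tln1ΔMC mice, a log2 difference of -0.31 (SE 0.25, limma with Benjamini-Hochberg adjustment, adjusted p = 0.875), but a 3′ tag outside the deleted part does not check the deletion. Of 8601 genes that reached 10 transcripts in 3 or more mice, limma with Benjamini-Hochberg adjustment called 0% higher and 0% lower in Tln1ΔMC MCs, and 503 genes (5.85%) had an unadjusted p under 0.05. With voom weights, another limma method, 0 genes were higher and 2 lower, and neither was a member. Replicates are separate mice. Of the 10 members 5 passed the filter, and the other 5 were too sparse for a fold change.

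Ccl7 was 0.18 higher on the log2 scale in Tln1ΔMC MCs (SE 0.23, 95% interval -0.33 to 0.70, limma adjusted p = 0.922), with overlapping mice. Ccl2 was 0.37 higher (SE 0.31, interval -0.31 to 1.06, limma adjusted p = 0.875), and its mice overlapped too. Both intervals include no difference. Ccl4 differed by 0.05 (SE 0.54, interval -1.15 to 1.25, limma adjusted p = 0.991), and WT mouse 3 alone lay above all the others.

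Cxcl1 was the only tested member whose mice did not overlap, at 13.9, 8.85 and 16.2 normalised transcripts per 1000000 in WT against 3.83, 3.62 and 2.24 in Tln1ΔMC mice. The log2 difference was -1.71 (SE 0.56, interval -2.96 to -0.46, limma unadjusted p = 0.0123, adjusted p = 0.676), and 11.6% of all genes tested had mice that did not overlap, 4.92% in this direction. These values rest on 13, 10 and 11 UMIs in WT and 3, 4 and 12 in Tln1ΔMC mice, below the level at barcodes without a cell. MCs in which Col1a1, Col1a2 and Dcn exceeded 1% of transcripts numbered 3, 5 and 4 in the WT and 1, 1 and 0 in the Tln1ΔMC mice, and they held 6 of the 13 transcripts of WT mouse 1, 0 of the 10 of WT mouse 2 and 10 of the 11 of WT mouse 3. In the Tln1ΔMC mice they held none. The whole fibroblast list of 6 genes summed to 20.1 to 82.7 per 10000 in WT and 0.976 to 10.5 in Tln1ΔMC mice. Without those cells Cxcl1 no longer passed the filter on low values, and as a mean over cells its difference was -0.24.

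Cxcl2 was 1.09 higher on the log2 scale in Tln1ΔMC MCs (SE 0.49, interval 0.00 to 2.17, limma unadjusted p = 0.0499, adjusted p = 0.838), at 25.7, 105 and 33.8 normalised transcripts per 1000000 in WT and 133, 113 and 60.6 in Tln1ΔMC mice. WT mouse 2, which lies inside the Tln1ΔMC range, made the groups overlap. The sum of 9 macrophage markers found in the tables ranged from 2.08 to 40.0 per 10000 in WT and from 1.15 to 7.13 in Tln1ΔMC mice. The MC with 87 Cxcl2 UMIs lay in Tln1ΔMC mouse 3 and gave 27.0% of that mouse's Cxcl2 transcripts. Over 23 alternatives, a fit without the macrophage-marker cells among them, the Cxcl2 difference ran from 0.684 to 1.685. Beyond that, the part of macrophage transcripts in the Cxcl2 values was not tested.

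Shares of cells gave the same picture. In cells thinned to 1000 UMIs, Ccl2 was found in 23.7%, 37.2% and 39.8% of WT and 29.0%, 34.5% and 41.4% of Tln1ΔMC MCs by mouse (exact two-sided permutation test, p = 0.8). Ccl7 was found in 65.2%, 66.1% and 65.3% of WT and 56.0%, 57.3% and 70.3% of Tln1ΔMC MCs (exact two-sided permutation test, p = 0.4). For each of the 10 members the exact permutation p was 0.4 or above, with a Benjamini-Hochberg value of 1, and the smallest p that 3 against 3 mice allow is 0.1. None of the 10 members had thinned shares that did not overlap, where 10.5% of all genes tested did. With 1 mouse left out, 0, 1 and 2 members did not overlap without WT mouse 1, 2 and 3, where 28.2%, 17.7% and 18.5% of genes did, and 0, 0 and 1 without Tln1ΔMC mouse 1, 2 and 3, where 17.9%, 18.2% and 25.1% did.

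**Figure D2:**
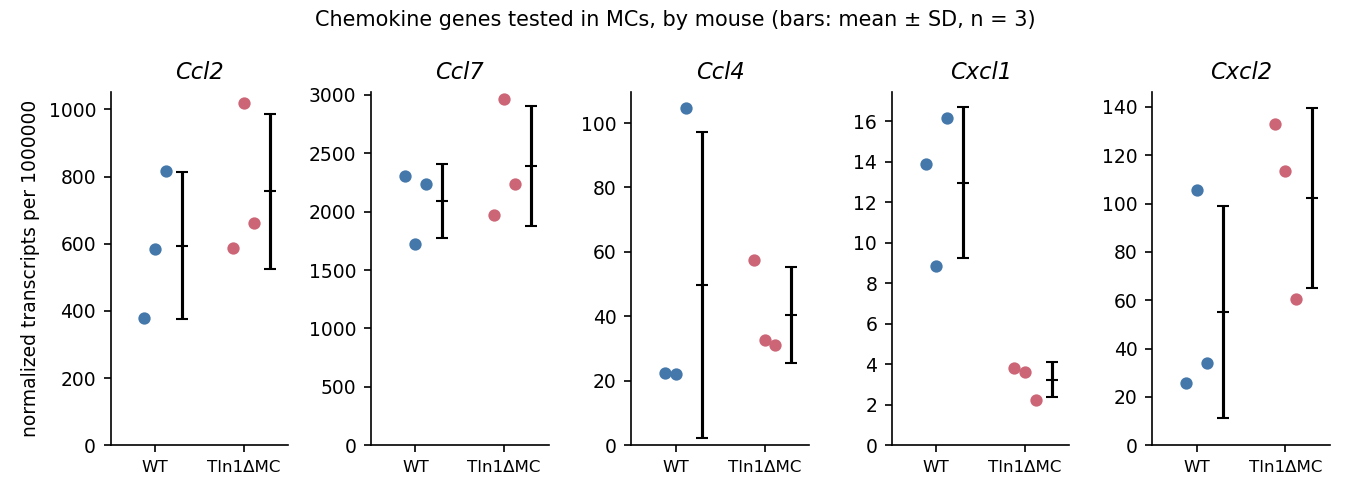
Normalised transcripts per 1000000 of the 5 tested members in each of 3 WT and 3 Tln1ΔMC mice, with the mean and SD (n = 3) beside the points. The mice overlap for Ccl2, Ccl7, Ccl4 and Cxcl2, and for Cxcl1 the WT mice (8.85 to 16.2) lie above the Tln1ΔMC mice (2.24 to 3.83).

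Within MCs, Ccl2 and Ccl7 tended to occur in the same cells. Both were found in 53.6% of the 2477 MCs and neither in 14.4%. Their correlation over cells, as the mean of the 6 within-mouse values on log2(level + 1), was 0.44 (0.33 to 0.60 by mouse), and Ccl7 was the gene most like Ccl2 out of 4707 genes found in at least 10% of MCs. Next to Ccl2 came Zfp36, which encodes an RNA-destabilising protein (0.37), and Junb, an AP-1 subunit (0.37), and next to Ccl7 came Nr4a1, an immediate early nuclear receptor gene, and the cytokine gene Il13 (0.37 each). Cells of a mouse share library and digestion, and a deeper cell shows more of every gene, so these values are descriptions. The 10% of MCs with the most Ccl2 held 53.7% of its transcripts, and for Ccl7 this share was 48.2%.

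Mural cells carried more kinds of chemokine transcript per cell. At least 5 of the 10 members were found in 24.5% of mural cells and in 0.121% of MCs, and at least 3 in 61.2% and 7.83%. Median depth was 3905 UMIs in mural cells (2164 to 4552.5 by library) and 3295 in MCs (1888 to 4761 by mouse). Cells were not thinned for these counts, so the part of depth was not tested.

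The mural cells were then split at the median of their summed Acta2 and Myh11 level, 44.3 per 10000, into 165 Acta2/Myh11-low and 165 Acta2/Myh11-high cells. Both genes encode contractile proteins that are high in arteriolar smooth muscle and lower in most pericytes. Median depth was 3873 and 3949 UMIs. The pericyte list of 8 genes summed to 128 per 10000 in low and 148 in high cells. Kcnj8 (2.52 against 0.732) and Abcc9 (4.15 against 0.966) of the same list, which encode a channel typical of pericytes, went against that sum. The split was by level and names no cell type.

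All 7 members with at least 10 transcripts were higher in the Acta2/Myh11-low cells, and each was so in all 4 libraries, where 10.6% of 9561 genes were. At least 2-fold differences were found for 5 members, against 11.2% of all genes, and 7.82% of genes were at least 2-fold higher in the high cells. The median fold over these 7 members was 3.12 and over all genes 0.977. No test was run, because the 4 libraries count as 1 sample.

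Ccl2 stood at 42.0 per 10000 (40.5 to 43.4) in low and at 13.01 (12.2 to 13.9) in high cells, a ratio of 3.23 (2.99 to 3.48). By library, low cells held 40.1, 58.8, 28.4 and 35.1 and high cells 17.0, 9.99, 12.1 and 9.92, so the libraries did not overlap. Ccl7 stood at 7.40 and 1.47, a ratio of 5.05 (4.08 to 6.31), with library values of 7.73, 7.40, 2.59 and 12.6 against 1.60, 0.997, 2.01 and 0.576. In library 15 the Ccl7 ratio was 1.29 (0.824 to 2.02), the lowest of the 4.

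Ccl11 stood at 10.8 in low and 2.23 in high cells, a ratio of 4.86 (4.08 to 5.82), and the low cells of each library (9.99, 13.1, 11.5 and 8.03) lay above the high cells of all libraries (2.12, 2.13, 3.13 and 0.461). Cxcl12 stood at 4.65 and 1.67, a ratio of 2.79 (2.25 to 3.47), with libraries apart as well (3.80 to 6.24 against 1.20 to 2.19). For Cxcl12 the share of cells moved with the level, 60.6% of low and 34.5% of high cells. Cxcl2 stood at 11.2 and 3.59, a ratio of 3.12 (2.71 to 3.62), and this ratio was 4.73 without library 13, where low and high cells differed by 1.39-fold.

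Cxcl1 differed less, at 84.5 in low and 54.3 in high cells, a ratio of 1.56 (1.49 to 1.62), and its libraries overlapped (55.6 to 122 against 45.3 to 64.6). More of the high cells held a Cxcl1 transcript (90.9% against 86.7%, and 75.9% against 69.0% when thinned to 1000 UMIs), and the median high cell held more of it (27.5 per 10000 against 20.9). The higher sum in low cells came from the upper end: the upper quartile was 140 per 10000 in low and 75.5 in high cells. Ccl2 was found in 60.0% of low and 57.6% of high cells, and in 49.2% and 36.3% when thinned to 1000 UMIs. Unlike Cxcl1, the median low cell held more Ccl2 than the median high cell (4.76 per 10000 against 2.10), and the upper quartiles were 53.6 and 9.87.

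Cxcl10 stood at 5.82 and 3.12, a ratio of 1.87 (1.58 to 2.21), and its libraries overlapped. Divided into 3 groups of 110 cells by Acta2 plus Myh11, Cxcl10 was highest in the middle group (3.94, 8.48 and 1.55), unlike Ccl2 (42.6, 30.6 and 9.27), Ccl7, Ccl11, Cxcl1, Cxcl2 and Cxcl12, which went down across the 3 groups. Cx3cl1 had 8 UMIs in low cells and none in high cells, at least 2.41-fold more by level with the limit of 3 counts over the high cells.

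Markers of other cell types also differed between the low and high cells. The fibroblast list of 6 genes summed to 310 per 10000 in low and 51.9 in high cells, the keratinocyte list of 6 to 13.3 and 0.468, and the endothelial list of 6 to 1.35 and 0.0146. The macrophage list was near equal (3.99 and 3.66) and the MC list low in both (0.145 and 0.249). Cells with over 1% of Col1a1, Col1a2 and Dcn transcripts numbered 21 among the low and 6 among the high cells, and Ccl7 was high in them (19.1 per 10000 against 2.53 in other mural cells). Without these 27 cells, and with the split drawn anew, the ratio was 3.45 for Ccl7, 6.86 for Ccl11, 2.26 for Cxcl10 and 1.69 for Cxcl1, so that each remained above 1. As a mean over cells the Ccl7 ratio was 1.72, the only one of the 5 at-least-2-fold members to fall below 2 that way.

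**Figure D3:**
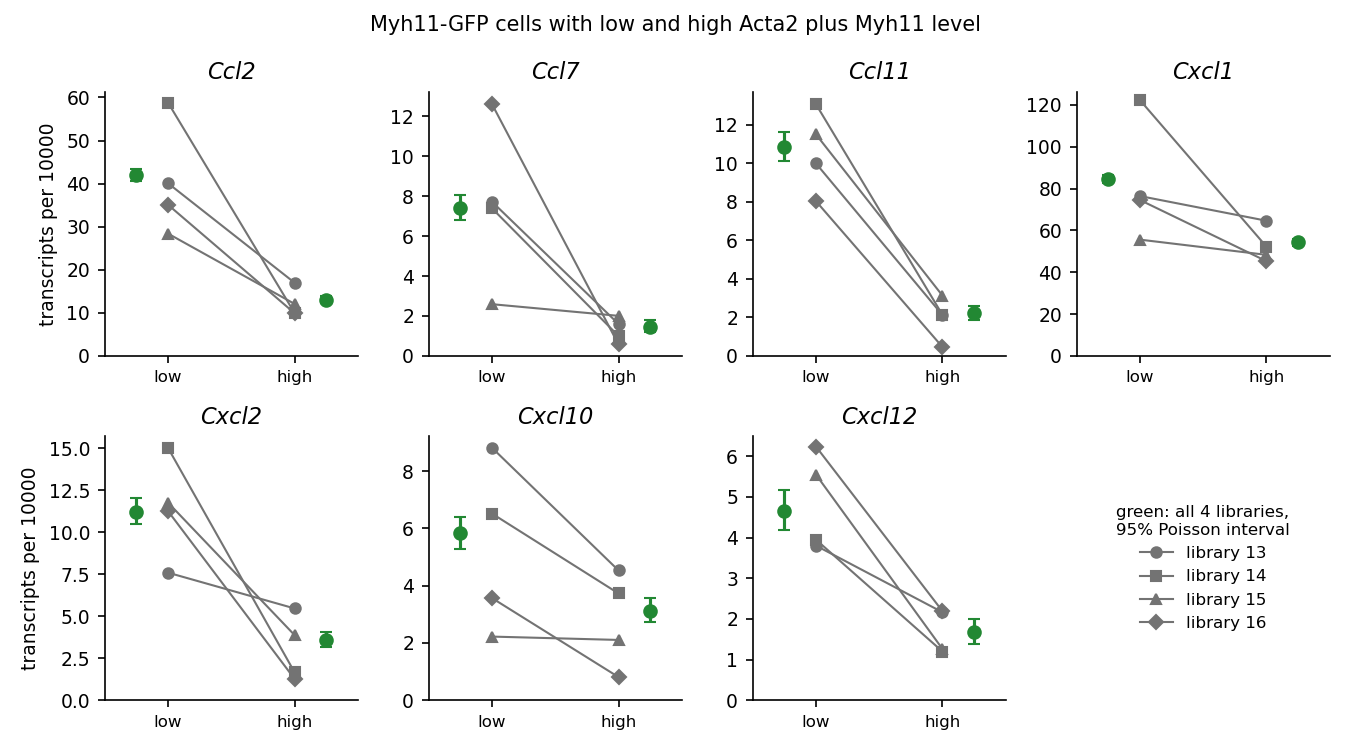
Transcripts per 10000 of the 7 members in Acta2/Myh11-low and -high cells, as grey symbols joined by library and as green points for all 4 libraries with 95% exact Poisson intervals. Every grey line goes down from low to high, and the symbols of both sides overlap for Cxcl1 and Cxcl10.

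Mural chemokine transcripts were concentrated in few cells. The 10% of mural cells with the most held 90.4% of Cxcl10, 89.9% of Ccl7, 78.1% of Ccl11, 76.8% of Cxcl2, 64.3% of Ccl2, 48.5% of Cxcl12 and 47.7% of Cxcl1 transcripts. Those cells partly coincided between members. Over the 330 cells and on log2(level + 1), Ccl2 and Cxcl1 had a correlation of 0.67 (0.48 to 0.72 by library), Ccl2 and Ccl11 of 0.53, Cxcl1 and Cxcl2 of 0.52, Ccl2 and Cxcl2 of 0.50 and Ccl2 and Ccl7 of 0.49. The value of Cxcl12 with Cxcl1 was 0.17, and Cxcl10 had no value above 0.32 with another member.

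**Figure D4:**
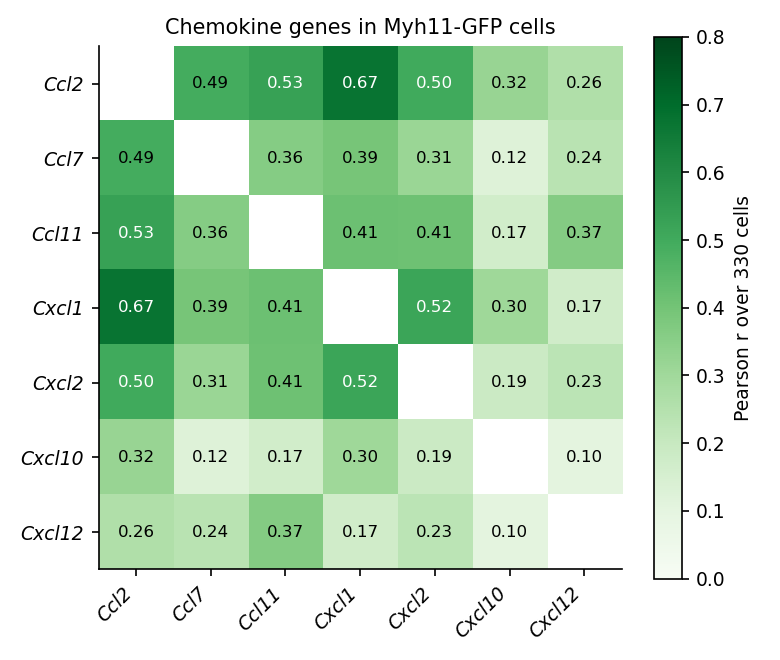
Pearson correlation over 330 mural cells, on log2(level + 1), for each pair of the 7 members found in at least 10% of cells (colour scale and printed values). The darkest pair is Ccl2 with Cxcl1 (0.67), and the rows of Cxcl10 and Cxcl12 are the palest.

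Of 5214 genes found in at least 10% of mural cells, the one most like Cxcl1 was Il6, which encodes an inflammatory cytokine (0.74, 0.41 to 0.86 by library), followed by Junb (0.71) and the NF-κB inhibitor gene Nfkbia (0.69). Most like Ccl2 after Cxcl1 were Il6 (0.65) and Tnfaip3, which encodes another NF-κB inhibitor (0.64). Tnfaip3 was also among the 3 genes most like Ccl11 (0.45) and Cxcl2 (0.44). Ccl7 had Tnfaip6, an inflammation-induced hyaluronan-binding protein gene, and the chemokine gene Ccl19 after Ccl2 (0.40 each). Cxcl12 had a different company, Colec11, a secreted lectin gene (0.50), Gpx3, an extracellular peroxidase gene (0.49), and the adrenergic receptor gene Adra2a (0.48), with values by library of 0.47 to 0.53, 0.46 to 0.55 and 0.41 to 0.53. Cxcl10 had Adamts4, a matrix protease gene (0.36), Bcr (0.36) and Gadd45b, a stress response gene (0.34). Without the 27 cells rich in fibroblast transcripts, Il6 remained the gene most like Cxcl1 (0.76) and Cxcl1 the gene most like Ccl2 (0.69), but other companions changed. Ccl11 (0.43) and Cxcl1 (0.43) took the places of Tnfaip6 and Ccl19 beside Ccl7, Zfp36l2 (0.47) that of Tnfaip3 beside Ccl11 and Id3 (0.71) that of Nfkbia beside Cxcl1. Il6 (0.38) became the gene most like Cxcl10, in place of Gadd45b among its 3. Cells share library, depth and digestion, so the values describe these cells only.

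**Figure D5:**
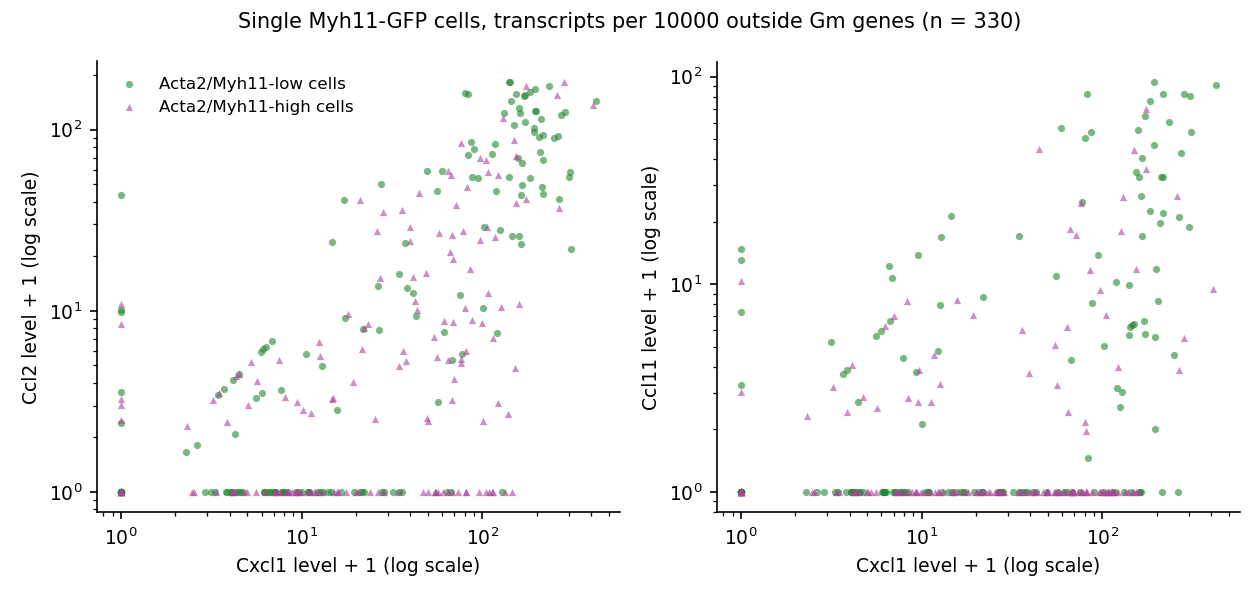
Ccl2 (left) and Ccl11 (right) against Cxcl1 in single mural cells (n = 330), as transcripts per 10000 plus 1 on log axes, with Acta2/Myh11-low cells as circles and -high cells as triangles. Cells rich in Ccl2 or Ccl11 are mostly rich in Cxcl1, and low cells fill most of the upper right, while many Cxcl1-positive cells of both kinds lie at 0 on the vertical axis.

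The other chemokine genes were lower than the leading members in both kinds of cell. Of 26 further ligands on the list, 23 had rows, and the highest by pooled MC level were Pf4 (0.484 per 10000), Ccl1 (0.216) and Ccl8 (0.191). This order rests on mice that differed widely. Pf4 ran from 0 to 1.62 by mouse (median 0.222, in 3.11% of MCs), Ccl1 from 0.0809 to 0.443 (median 0.263, in 4.93%) and Ccl8 from 0 to 1.11 (median 0.0903, in 0.888%), so that by the median mouse Ccl1 lay above Pf4, and Cxcl14 (0.103) and Ccl25 (0.0929) above Ccl8. In mural cells the highest were Ccl19 (1.18, 0.584 to 1.99 by library), Cxcl5 (0.655, 0.0418 to 1.74) and Cxcl9 (0.292, 0 to 0.950). Among receptors, MCs held Ccrl2, an atypical receptor (3.23), Ackr1 (0.854) and Cxcr2 (0.719), and mural cells held Cxcr2 (0.736), Ccrl2 (0.646) and Ackr3, a CXCL12 scavenger (0.542). Between genotypes, none of 7 ligands, 6 receptors, 13 genes that respond to inflammatory signals, 3 genes of chemokine binding or processing and 8 immediate early genes passed limma with Benjamini-Hochberg adjustment, with smallest adjusted p-values by list from 0.613 to 0.839. The 7 ligands had a median log2 difference of -2.70, against -0.00 for all genes tested. It was -1.53 without the WT mouse 2 library that stood apart (5 ligands tested) and 0.03 without the whole mouse (3 ligands tested). With Tln1ΔMC mouse 3 cut to 4 libraries it was -0.198, and without that mouse -0.205 (3 ligands tested each). Leaving out 1 of the other mice gave -2.57 to -1.77. Fewer ligands passed the filter in several of these fits, so the medians do not cover the same genes. Of the 9 further ligands with at least 10 transcripts in mural cells, 8 were at least 2-fold higher in Acta2/Myh11-low cells, where 11.2% of all genes were. The fibroblast, keratinocyte and endothelial lists were higher in the low cells too, with the values given above, and their part in these ligands was not tested.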

How the data were processed

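The authors aligned the mRNA mate of each read pair to the mouse transcriptome (mm10) with BWA 0.6.2-r126 after bcl2fastq 2.17.1.14, merged isoforms, discarded reads at several loci and turned UMIs per barcode into transcript numbers by binomial statistics. The tables deposited by the authors thus hold estimated transcript counts per gene and barcode. Whole UMIs were recovered from them within 1e-06. A UMI of 6 bases has 4096 variants, and no column was left unmapped (0). Barcodes with over 1000 transcripts and at most 2% Kcnq1ot1 were kept, the latter removing 0 cells. The study keeps fewer MCs and the same number of Myh11-GFP cells. Doublets were not called.

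MC transcripts were summed per mouse, scaled by TMM, and log2(transcripts per 1000000 + 1) was tested with limma 3.58.1 (trend, R 4.3.3) and Benjamini-Hochberg adjustment over all genes that reached 10 transcripts in 3 or more mice. Fold changes are on that scale and understate those of low genes. The same fit was also run on simulated data with 200 changed genes, and no conclusion here rests on it. Shares were compared by exact permutation tests after thinning cells to 1000 UMIs (Python 3.11, scipy 1.17.1), which left 196 to 923 MCs per mouse. Intervals are exact Poisson at 95% and cover counting error only. Named genes were the 10 members, the 3 highest other ligands and receptors per kind of cell, and the 3 genes most correlated with each member. Members and lists were chosen with earlier results of these data known. Alternatives were other scalings, filters, depths, cells and left-out replicates.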

Additional observations from a re-analysis of the deposited data

Results flagged for a closer look

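Of 39 sets of 4 Myh11-GFP library values, 2 had a library far from the others by Dixon's criterion, and chance alone gives about 1 in 20. The share of cells with Ccl7 was 18.6% in library 15 and 25.6% to 26.9% in the other 3. The level of Cxcl12 was 4.65 per 10000 in library 16 and 2.81 to 3.11 in the other 3.

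Barcodes outside the set in use that held no cell enter no comparison of genotypes or kinds of cell, but they held chemokine transcripts. In the MC libraries Ccl7 stood there at 16.0 per 10000 (cells 22.7), and in the Myh11-GFP libraries Cxcl1 stood at 34.7 (cells 70.8). Among the cells kept, 17 carried barcodes outside the set in use, 9 in MC and 8 in Myh11-GFP libraries, and the main comparisons include them.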

How the results depend on the processing

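No member passed limma's test under any alternative, with adjusted p-values of 0.193 to 0.999 for Cxcl1 and 0.290 to 0.998 for Cxcl2. Genes higher in Tln1ΔMC MCs stayed at 0 throughout. Genes lower numbered 2 with voom weights, 4 with the naming series of the libraries as a block, and 0 to 12 when 1 mouse was left out (12 without Tln1ΔMC mouse 1 and 1 without WT mouse 1), and the cause was not tested. Tln1ΔMC mouse 3 was alone in its naming series, so with that block the genotype contrast rested on the other mice. The naming-series block and the fits without cells rich in fibroblast transcripts or without barcodes outside the set in use were chosen after seeing the data. The log2 difference of Ccl4 turned to -0.0397 without the WT mouse 2 library that stands apart, to -0.0794 as a mean over cells and to -0.0256 without the fibroblast-rich cells, and ran from -0.32 to 0.77 when 1 mouse was left out. The replicate block called 0 genes (adjusted p of 0.940 for Cxcl1 and 0.882 for Cxcl2), and same-numbered mice did not deviate together (correlations of 0.16, -0.21 and -0.27), so the numbers do not pair the mice. Members whose thinned shares did not overlap numbered 0 to 2 when 1 mouse was left out (1 without WT mouse 2, 2 without WT mouse 3, 1 without Tln1ΔMC mouse 3), near or below the shares of all genes (17.7%, 18.5% and 25.1%). Members at least 2-fold higher in Acta2/Myh11-low cells numbered 4 to 6 over all alternatives, and all 7 remained higher in each. Between the extreme groups of 110 cells the ratios were larger (11.9 for Ccl7, 10.9 for Ccl11), and thinned to 1000 UMIs that of Ccl7 was 2.04. Members with every mural library above every mouse numbered 5 to 7, and the reverse 2 to 3. Depth limits Ccl3, Cx3cl1 and the MC values of Ccl11, Cxcl10 and Cxcl12, which rest on few transcripts.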
